A study of Mus musculus with 8 samples.

Results

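The Hedgehog pathway genes described here are the 9 genes Ihh, Shh, Dhh, Ptch1, Smo, Gli1, Gli2, Gli3 and Hhip, taken by their symbols from the 32285 genes of the count matrices. All 9 were present. They were followed in single-cell RNA-seq libraries of mouse colon, in which each unique molecular identifier (UMI) stands for 1 captured transcript molecule. Assembloids are co-cultures in which colon epithelium and primary colon stroma form crypt-like structures together, whereas organoids are grown from epithelium alone.

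The libraries formed 4 groups of 2, all from C57BL/6 mice without a genetic change: epithelial cells from assembloids, epithelial cells from organoids, epithelial cells taken directly from colon tissue, and stromal cells from assembloids. The donor mice were males of 6 to 12 weeks. The assembloids had been kept for 4 to 5 days in a medium without Wnt surrogate, CHIR-99021, R-spondin 1 and noggin, while the organoids were kept in the full medium that holds these factors, and EGF and A83-01 were present in both. No Hedgehog agonist or inhibitor is listed for either medium. The stromal cells came from assembloids of 2 mice and are described as EpCAM-negative, with no sorting step for these libraries given in the sources used here, and no stroma taken directly from tissue was analysed here. The study calls the libraries of a group biological replicates. The labels do not tie single libraries to animals or cultures, and with 2 libraries a group the p-values rest on the spread between these libraries.

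In the Hedgehog pathway, a secreted ligand (Ihh, Shh or Dhh) binds the receptor Patched 1 (Ptch1), which otherwise holds the membrane protein Smoothened (Smo) inactive. Active Smo acts through the transcription factors Gli1, Gli2 and Gli3, and Ptch1, Gli1 and Hhip (a membrane protein that captures the ligands) are themselves induced by the signal. In the adult colon the pathway is known mainly as a paracrine one, with Indian hedgehog (Ihh) made by differentiated epithelium and received by the fibroblasts and smooth muscle beneath it.

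On GRCm38 with the GENCODE M21 annotation, Ihh (ENSMUSG00000006538) lies on the minus strand of chromosome 1 from 74945315 to 74951672 and no annotated gene overlaps it. Gli2 and Gli3 lie at 118834132 to 119053619 on chromosome 1 (minus strand) and at 15463235 to 15730026 on chromosome 13 (plus strand). The other 8 genes each share bases with another annotated gene, namely 9530036O11Rik and Gm26894 for Shh, Rhebl1 and Gm49442 for Dhh, A930032L01Rik for Ptch1, Gm13717 for Smo, Arhgap9 and Gm47200 for Gli1, Mir6346 for Gli2, Gm6556 and Gm48343 for Gli3 and Gm27820 for Hhip. These overlaps are of whole gene spans, introns included. Dhh, Ptch1, Smo and Gli3 each overlap a gene on the same strand, and Shh, Gli1, Gli2 and Hhip only genes on the opposite strand. The counts of the 8 genes are uncertain only to the extent that reads from shared bases were assigned to either gene.

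RefSeq promoter windows on GRCm38.p6, from 250 bases before to 50 bases after the RefSeq start of the gene, were found for 7 of the 9 genes, and those of Shh and Gli1 had no entry. The windows of 4 genes are shown 5′ to 3′ on the strand of the gene, because Ihh was the ligand of the epithelium, Ptch1 is its receptor and Gli2 and Gli3 are transcription factors of the pathway. Capitals mark the core CCACCC or its reverse complement GGGTGG, which belongs to the 9-base motif GACCACCCA (reverse TGGGTGGTC) bound by Gli proteins. The windows lie at chr1:74951623-74951922 (Ihh, minus strand), chr13:63565686-63565985 (Ptch1, minus strand), chr1:119053570-119053869 (Gli2, minus strand) and chr13:15463473-15463772 (Gli3, plus strand). The RefSeq starts of Ptch1 and Gli3 lie 7863 and 488 bases inside the GENCODE spans of these genes, each at the start of 1 GENCODE transcript, and those of Ihh and Gli2 at the outer end of the span.
Ihh: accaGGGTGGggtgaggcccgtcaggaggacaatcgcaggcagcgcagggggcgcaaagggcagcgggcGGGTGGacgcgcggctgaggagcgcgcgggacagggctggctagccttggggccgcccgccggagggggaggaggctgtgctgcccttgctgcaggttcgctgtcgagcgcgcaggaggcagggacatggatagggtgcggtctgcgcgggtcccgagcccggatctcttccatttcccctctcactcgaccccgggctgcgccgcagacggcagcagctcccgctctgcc
Ptch1: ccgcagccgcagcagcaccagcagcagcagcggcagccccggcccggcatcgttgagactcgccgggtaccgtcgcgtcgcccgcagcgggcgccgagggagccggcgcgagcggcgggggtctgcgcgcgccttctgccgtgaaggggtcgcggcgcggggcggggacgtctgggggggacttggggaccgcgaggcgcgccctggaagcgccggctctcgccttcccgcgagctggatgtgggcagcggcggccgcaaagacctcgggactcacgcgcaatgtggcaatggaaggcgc
Gli2: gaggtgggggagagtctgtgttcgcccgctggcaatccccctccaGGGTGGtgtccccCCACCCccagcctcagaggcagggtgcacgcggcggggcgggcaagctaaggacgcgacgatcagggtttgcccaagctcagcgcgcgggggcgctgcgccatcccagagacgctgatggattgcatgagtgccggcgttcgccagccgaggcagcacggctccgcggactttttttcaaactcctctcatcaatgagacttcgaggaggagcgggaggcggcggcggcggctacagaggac
Gli3: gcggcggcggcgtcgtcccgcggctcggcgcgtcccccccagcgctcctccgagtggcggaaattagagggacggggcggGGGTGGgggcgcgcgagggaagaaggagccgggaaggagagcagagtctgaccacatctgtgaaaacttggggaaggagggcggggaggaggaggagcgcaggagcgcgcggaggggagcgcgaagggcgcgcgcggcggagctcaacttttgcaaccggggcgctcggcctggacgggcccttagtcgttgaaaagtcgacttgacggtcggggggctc
On both strands together, none of the 7 windows held the 9-base motif, which was present in 83 of 32851 RefSeq windows of this length (0.253%). The 6-base core, which every 9-base match also contains, occurred in 31.5% of all windows, with 2 copies each in Ihh and Gli2, 1 each in Gli3, Smo, Hhip and Dhh, and 0 in Ptch1. The windows of Ihh and Ptch1 were rich in G and C (72.7% and 76.3%). A match in these windows is a description of letters and not a binding site.

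The libraries held between 99133978 and 191255856 UMIs over all barcodes, with 4310 to 29410 cells kept per library and a median of 3444 to 35219 UMIs per kept cell. The losses were unequal. Tissue libraries kept 38.7% and 25.4% of their barcodes, which left 47082773 and 36970661 UMIs. Assembloid epithelium kept 89.3% and 55.1%, organoid epithelium 81.4% and 55.3%, and stroma 94.8% and 96.1%. The levels below come from kept cells. No pair of libraries shared more than 0.98% of barcodes. Levels are given in CPM, the UMIs of a gene for every 1000000 UMIs of a group of cells summed within 1 library. The summed CPM of 5 epithelial markers (Epcam, Krt8, Krt18, Cdh1 and Lgals4) was between 4548 and 11365 in the epithelial cells of the 6 epithelial libraries, against 25.3 and 10.1 in stroma. That of 5 fibroblast markers (Col1a1, Col1a2, Col3a1, Dcn and Lum) was 7337 and 10488 in stroma, 136 and 22.7 in assembloid epithelium and at most 0.0542 in the organoid and tissue libraries. Cell classes carry the ending "-like" because their names come from marker genes, and clustering was done without the 9 genes and the pathway genes listed further on. Doublets were not removed.

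Between the stroma and epithelium libraries of assembloids, Ihh was measured almost exclusively in epithelium. Ptch1, Smo, Gli1, Gli2 and Gli3 were higher in stroma, with Gli1 reaching 309-fold in the edgeR fit. The Gli1 fold rests on 4 UMIs in the summed libraries of assembloid epithelium. Its ratio of summed CPM was 373, with a counting interval from 145 to 1369. Between assembloid stroma and assembloid epithelium, edgeR's quasi-likelihood test called 7 of the 8 genes that could be tested at a Benjamini-Hochberg adjusted p under 0.05. This comparison called 72.0% of all 19660 genes tested, so that being called says little by itself here and the sizes carry the description. The median log2 fold change over all genes tested was −0.11. The stroma and epithelium libraries also differ in Cell Ranger version, which cannot be told apart from the compartment. Fibroblast-like and epithelial cells of the assembloid epithelial libraries were processed together. Between these cells, Smo, Gli2 and Gli3 passed the edgeR test, while Ihh, Ptch1 and Gli1 did not, as given below. The fibroblast-like and macrophage-like cells of these libraries also held Ihh.

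Ihh in assembloid epithelium amounted to 3966 UMIs (25.6 CPM) in library 1 and 4319 UMIs (40.6 CPM) in library 2. Assembloid stroma, with its epithelial-like and squamous epithelial-like cells set aside, held 5 UMIs in each library (0.0367 and 0.0365 CPM). The 2 compartments were far apart, and Ihh was lower in stroma by a log2 fold change of −9.94 (SE 0.34, adjusted p = 0.000144, edgeR). When each cell was thinned to 2000 UMIs, Ihh was detected in 5.32% and 7.42% of assembloid epithelial cells (12.8% and 32.9% before thinning) and in 0.0124% and 0.0224% of stromal cells.

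Ptch1, the receptor, was at 58.4 and 64.1 CPM in stroma and 15.3 and 17.7 CPM in assembloid epithelium. The libraries of the compartments did not overlap, and the log2 fold change was 1.73 (SE 0.14, adjusted p = 0.000609, edgeR), or 3.31-fold. Ptch1 was present on both sides, and the epithelium held 2369 and 1886 UMIs of it. Smo, which transmits the signal, was at 40.6 and 39.8 CPM in stroma against 1.68 and 3.41 CPM in assembloid epithelium, a difference of 14.3-fold (log2 3.84, SE 0.33, adjusted p = 0.00074, edgeR).

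The Gli transcription factors were higher in stroma. Gli1, whose transcription follows pathway activity, had 965 and 594 UMIs in stroma (7.08 and 4.33 CPM) but only 2 UMIs in each library of assembloid epithelium. Gli2, the main activator, was at 22.4 and 23.5 CPM in stroma and 0.361 and 0.141 CPM in epithelium, and Gli3, the main repressor, at 20.7 and 22.7 CPM against 0.426 and 0.150 CPM. The log2 fold changes were 8.27 (SE 0.54) for Gli1, 6.26 (SE 0.51) for Gli2 and 5.99 (SE 0.55) for Gli3, with adjusted p-values of 0.000383, 0.000636 and 0.000889 (edgeR). With single libraries left out they ran from 7.89 to 8.59, from 5.73 to 7.22 and from 5.42 to 7.05. For Gli1, only the stroma reached the 5 UMIs per library required for a fold, so that its test is no separate support.

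Hhip, the ligand-capturing inhibitor, was scarce everywhere. It had 62 and 44 UMIs in stroma (0.455 and 0.321 CPM), and 43 and 3 UMIs in assembloid epithelium (0.277 and 0.0282 CPM), where 33 of the 43 lay in an unnamed cluster led by Gm35239 and Gm42418. The epithelial libraries lay below the stromal ones, but far apart from each other, and the difference did not pass the test (log2 1.07, SE 0.99, adjusted p = 0.371, edgeR). With single libraries left out the value ran from 0.22 to 3.62. It was 3.62 without assembloid epithelium library 1, where the epithelial side is 1 library with no spread of its own. Dhh, desert hedgehog, was higher in stroma, with 59 and 60 UMIs in stroma and 14 and 6 in assembloid epithelium (log2 2.34, SE 0.50, adjusted p = 0.0103, edgeR), a call that was lost without stroma library 1 or 2 (adjusted p = 0.0581 and 0.059). Shh, with 39 and 6 UMIs in stroma and 1 and 0 in assembloid epithelium, was too rare to be tested here. Neither organoid nor tissue epithelium held an Hhip UMI in kept cells, which allows at most 3 UMIs per library and covers counting error only. Over all barcodes, tissue library 2 held 1 Hhip UMI.

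The stroma and epithelium matrices differ in the Cell Ranger version named in their headers (6.0.1 and 7.1.0), and the compartment and the version cannot be told apart. The assembloid epithelial libraries also contained fibroblast-like cells, 3367 in library 1 and 673 in library 2, which were processed together with the epithelial cells. Their summed CPM of the fibroblast markers was 5432 and 9203, and that of the epithelial markers 4855 and 2331 against 8998 and 11365 in the epithelial cells, and the part of these epithelial transcripts in the comparison was not tested. Within these libraries, 3 of the 6 genes tested were higher in the fibroblast-like than in the epithelial cells, where 9.42% of all 17948 genes were called in either direction and 9.19% as higher. They were Smo (log2 2.72, SE 0.26, adjusted p = 0.041), Gli2 (6.35, SE 0.80, adjusted p = 0.0413) and Gli3 (6.52, SE 0.77, adjusted p = 0.041).

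In that comparison, which had 1 residual degree of freedom, Gli1 (5 and 7 UMIs in the fibroblast-like cells) and Ptch1 had log2 fold changes of 4.95 (SE 0.84, adjusted p = 0.0515) and 1.39 (SE 0.26, adjusted p = 0.0608). With only 1 library kept there is no test, and the log2 ratios of CPM + 1, a scale that understates the change of low genes, were 0.41 and 0.85 for Gli1, 3.46 and 4.76 for Gli2 and 3.81 and 4.97 for Gli3. Ptch1 was at 31.9 and 60.4 CPM in the fibroblast-like cells. Ihh did not pass either (log2 −1.65, SE 0.57, adjusted p = 0.133, edgeR). The fibroblast-like cells of these libraries held Ihh at 15.7 and 6.6 CPM and the macrophage-like cells at 24.2 and 11.1 CPM, and these levels, in cells that are not known to make Ihh, are the background for the other classes of these libraries. The part of free RNA and of doublets in them was not tested.

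**Figure D1:**
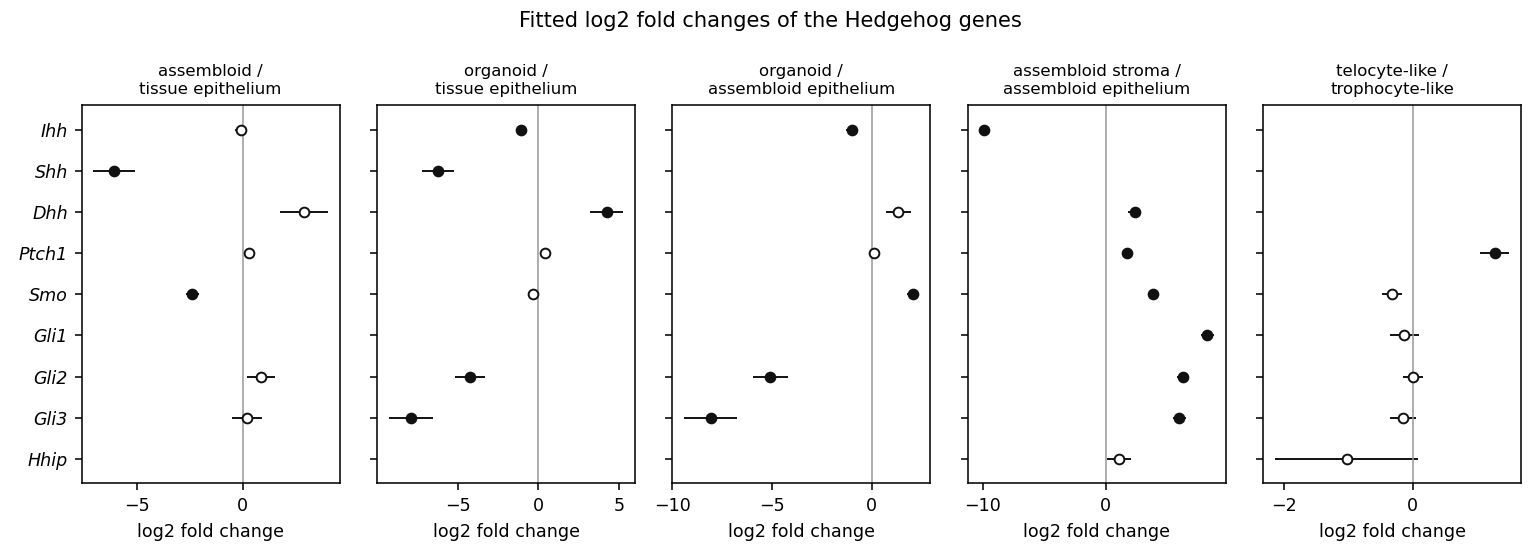
Log2 fold changes of the Hedgehog genes in the main comparisons, with bars of 1 SE from the edgeR fit and filled symbols for an adjusted p under 0.05. Gli1, Gli2 and Gli3 are the genes farthest to the stromal side (8.27, 6.26 and 5.99) and Ihh is the gene farthest to the epithelial side (−9.94).

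In epithelium, the level of Ihh did not differ detectably between assembloids and tissue, whereas Smo and Shh were lower in assembloids and Ihh was lower in organoids than in either. The tissue libraries held Ihh at 42.9 and 49.1 CPM (2016 and 1812 UMIs), the assembloid libraries at 25.6 and 40.6 CPM and the organoid libraries at 20.8 and 15.3 CPM (3910 and 1419 UMIs). The organoid libraries were the lowest and the tissue libraries the highest in CPM, with no overlap between any 2 groups. After TMM scaling, which the test uses, assembloids (31.3 and 43.0) and tissue (36.9 and 42.9) did overlap.

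The log2 fold change of Ihh between assembloids and tissue was −0.10 (SE 0.28, 95% interval from −0.66 to 0.45, adjusted p = 0.776, edgeR). With library totals in place of TMM it was −0.48 and did not pass the test either. Between organoids and tissue it was −1.09 (SE 0.29, adjusted p = 0.0139) and between organoids and assembloids −0.98 (SE 0.29, adjusted p = 0.0191). Both calls depended on single libraries. The first was lost without organoid library 2 (−0.73), tissue library 1 (−1.19) or tissue library 2 (−0.97), and the second without organoid library 2 (−0.61) or assembloid library 2 (−0.71). Thinned to 2000 UMIs per cell, Ihh was detected in 10.4% and 9.17% of tissue, 5.32% and 7.42% of assembloid and 4.49% and 3.42% of organoid epithelial cells (25.4% and 25.4%, 12.8% and 32.9%, and 42.3% and 13.2% before thinning). Thinning left out 2245 and 1532 tissue, 5401 and 758 assembloid and 110 and 3419 organoid cells that had fewer UMIs.

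Of the 7 Hedgehog genes tested between assembloids and tissue, 2 were called, Shh and Smo, in a comparison that called 49.7% of all 19118 genes. Smo was at 17.8 and 16.2 CPM in tissue, 9.39 and 14.4 CPM in organoids and 1.68 and 3.41 CPM in assembloids. The assembloid libraries lay below all 4 others, and the log2 fold change was −2.38 against tissue (SE 0.29, adjusted p = 0.000402, 5.22-fold lower). Organoids were 4.19-fold above assembloids (log2 2.07, SE 0.29, adjusted p = 0.000757, edgeR). Organoids and tissue differed by −0.32 (SE 0.28, 95% interval from −0.86 to 0.23, adjusted p = 0.375). The calls on Smo held with each library left out in turn.

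Ptch1 was at 18.1 and 17.0 CPM in tissue, 15.3 and 17.7 in assembloids and 15.0 and 25.5 in organoids. The 3 groups overlapped, and the log2 fold changes against tissue were 0.30 for assembloids (95% interval from −0.10 to 0.69, adjusted p = 0.246) and 0.40 for organoids (95% interval from 0.00 to 0.79, adjusted p = 0.139, edgeR). With single libraries left out they ran from 0.25 to 0.33 and from 0.19 to 0.59.

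The other ligands were rare in epithelium. Shh, sonic hedgehog, had 18 UMIs in each tissue library, of which 18 and 15 lay in goblet-like cells, but 1 and 0 UMIs in assembloids and 0 and 1 in organoids. Over the summed libraries this is 112-fold more in tissue than in assembloids (95% counting interval from 18.9 to 4555) and 120-fold more than in organoids (20.3 to 4888). Both differences passed the edgeR test (adjusted p = 0.0015 and 0.00121). With each library left out, the log2 fold changes ran from −8.12 to −5.37 and from −8.21 to −5.09. Only tissue, the group where Shh was high, reached the 5 UMIs per library required for a fold. The tests are thus no separate support for the difference. Over all barcodes, before cells were filtered, Shh had 39 and 43 UMIs in tissue, 1 and 0 in assembloids and 0 and 2 in organoids. Dhh had 30 and 27 UMIs in organoids, 14 and 6 in assembloids and 0 and 1 in tissue. The organoid excess over tissue, 17.0-fold with a counting interval from 2.94 to 685, passed the test (adjusted p = 0.00939, edgeR) but not without organoid library 2 or tissue library 1 (adjusted p = 0.0612 and 0.117).

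Gli2 and Gli3 were also at trace levels in epithelium, with 10 and 6 UMIs of Gli2 and 22 and 8 UMIs of Gli3 in tissue. Organoids had 1 Gli2 UMI per library, a difference from tissue that passed (adjusted p = 0.00635, edgeR) but not without organoid library 1 (adjusted p = 0.0672). They had 0 Gli3 UMIs, so that Gli3 was at least 33.5-fold higher in tissue and at least 29.3-fold higher in assembloids, taking 3 counts over both organoid libraries as the floor. The assembloid epithelium had 56 and 15 UMIs of Gli2 and 66 and 16 of Gli3. The fibroblast marker sum moved with these, at 136 and 22.7 CPM in the same 2 assembloid libraries and at most 0.0542 CPM in organoids and tissue, and its part in the result was not tested. In all, 5 of 7 tested genes were called between organoids and tissue and 4 of 6 between organoids and assembloids, where 47.1% and 52.6% of all genes were. The first count was 3 without organoid library 2 or tissue library 1.

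Inside the epithelium, Ihh was higher in colonocyte-like and goblet-like cells than in cycling cells of assembloids and tissue. In tissue, cycling cells held 28.7 and 31.8 CPM, stem-like cells 37.6 and 31.6, colonocyte-like cells 45.1 and 41.6, and goblet-like cells 55.0 and 62.0. Enteroendocrine-like cells were highest at 85.2 and 187 CPM, from 56 and 154 UMIs. Among these classes, only stem-like and cycling cells overlapped between libraries.

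In assembloids, cycling cells held 12.5 and 22.6 CPM, enteroendocrine-like cells 20.7 and 23.8, goblet-like cells 27.3 and 39.4 and colonocyte-like cells 28.4 and 48.2. Library 2 was the higher one in each of these classes. Cycling overlapped with enteroendocrine-like cells and goblet-like with colonocyte-like cells, and the lower pair lay below the upper pair. In organoids, cycling cells were at 17.8 and 11.8 CPM, stem-like cells at 20.1 and 16.6, colonocyte-like cells at 26.3 and 20.9 and goblet-like cells at 35.0 and 29.2, and only cycling and stem-like cells overlapped.

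The classes differ in make-up between the groups. The summed CPM of 9 cycling markers was 3105 and 2277 in cycling and 1077 and 697 in colonocyte-like cells of assembloids, 3597 and 3114 against 2484 and 2230 in organoids, and 3605 and 2723 against 168 and 161 in tissue. Goblet-like cells had a sum of 1349 and 626 (assembloids), 2246 and 2207 (organoids) and 327 and 308 (tissue). Stem-like cells had 3138 and 2199 in organoids and 573 and 514 in tissue. In organoids, Mki67 alone was at 313 and 343 CPM in stem-like and 240 and 256 CPM in cycling cells. The cycling cluster of assembloids was led by Gm29585, 2900060N12Rik, Gm36037 and Kntc1, that of tissue by Hist1h2ap, Top2a and Cenpp. Of the organoid colonocyte-like cells, 92.4% and 96.6% fell at a resolution of 0.4 into an unnamed cluster led by Dtl, S100g and Cdc6, of which Dtl and Cdc6 act in DNA replication, and 6.85% and 2.62% stayed colonocyte-like. The colonocyte-like class of assembloids also changed, from 5743 cells at a resolution of 0.2 to 2019 at 0.4. At 0.4 there was an unnamed assembloid cluster of 4104 cells led by Cbr3 and Gclm. How many cells it took from the colonocyte-like class was not counted. The part of these differences in make-up in the comparisons of groups was not tested.

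Against cycling cells of the same libraries, Ihh was 2.92-fold higher in colonocyte-like cells of assembloids (log2 1.54, SE 0.20, adjusted p = 9.54e-06) and 2.14-fold higher in those of tissue (1.10, SE 0.22, adjusted p = 0.000464, edgeR), where 47.6% and 45.8% of 17400 genes were called. The tissue value was 0.53 and did not pass with library totals in place of TMM. In organoids it was 0.49 (SE 0.20, adjusted p = 0.279), in a comparison that called 2.26% of genes and 0 of 3 members. DESeq2 also called 0, and 1 member, Ihh, had an unadjusted p under 0.05, as did 2280 of all 17400 genes tested. The difference between the organoid and assembloid values was −1.06 (SE 0.28, adjusted p = 0.00891), in a test of the difference that called 28% of genes and 1 of 3 members, and it did not pass without organoid library 1 (adjusted p = 0.104) or 2 (adjusted p = 0.12). Goblet-like cells exceeded cycling cells in all 3 groups, with log2 fold changes of 1.16 (SE 0.20, adjusted p = 0.000323) in assembloids, 0.63 (SE 0.22, adjusted p = 0.0325) in organoids and 1.20 (SE 0.22, adjusted p = 0.000596) in tissue, where 34.8%, 31.3% and 19.5% of genes were called. The goblet-like value of organoids did not pass without organoid library 1 (0.78, adjusted p = 0.192) or 2 (0.69, adjusted p = 0.276), nor with a clustering resolution of 0.4 (0.57, adjusted p = 0.105), with at most 5% mitochondrial UMIs (0.85, adjusted p = 0.0669) or without the library as a block (0.62, adjusted p = 0.318). The goblet-like value of tissue did not pass without the block (1.20, adjusted p = 0.057). Enteroendocrine-like cells of tissue exceeded cycling cells by 2.00 (SE 0.25, adjusted p = 7.24e-06, edgeR), where 33.2% were called. With single libraries left out this value ran from 1.24 to 2.26.

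After thinning, Ihh was found in 5.57% and 9.07% of colonocyte-like and 3.07% and 4.74% of cycling cells of assembloids (24% and 49.2%, and 10.6% and 25.2%, before thinning). The fibroblast-like cells of the same libraries stood at 3.20% and 0.464% (5.79% and 5.65% before thinning). The cycling cells of assembloid library 1 were no higher than this background. In CPM, the macrophage-like cells of library 1 (24.2) were above its cycling and enteroendocrine-like cells and close to its goblet-like and colonocyte-like cells (27.3 and 28.4). The epithelial marker sum of the macrophage-like cells was 6346 and 3064 CPM, against 8998 and 11365 in the epithelial cells, and its part was not tested. In tissue, the thinned shares of colonocyte-like cells (8.53% and 9.52%) and cycling cells (9.14% and 8.19%) overlapped, so that the order seen in CPM was not seen in detection at equal depth.

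**Figure D2:**
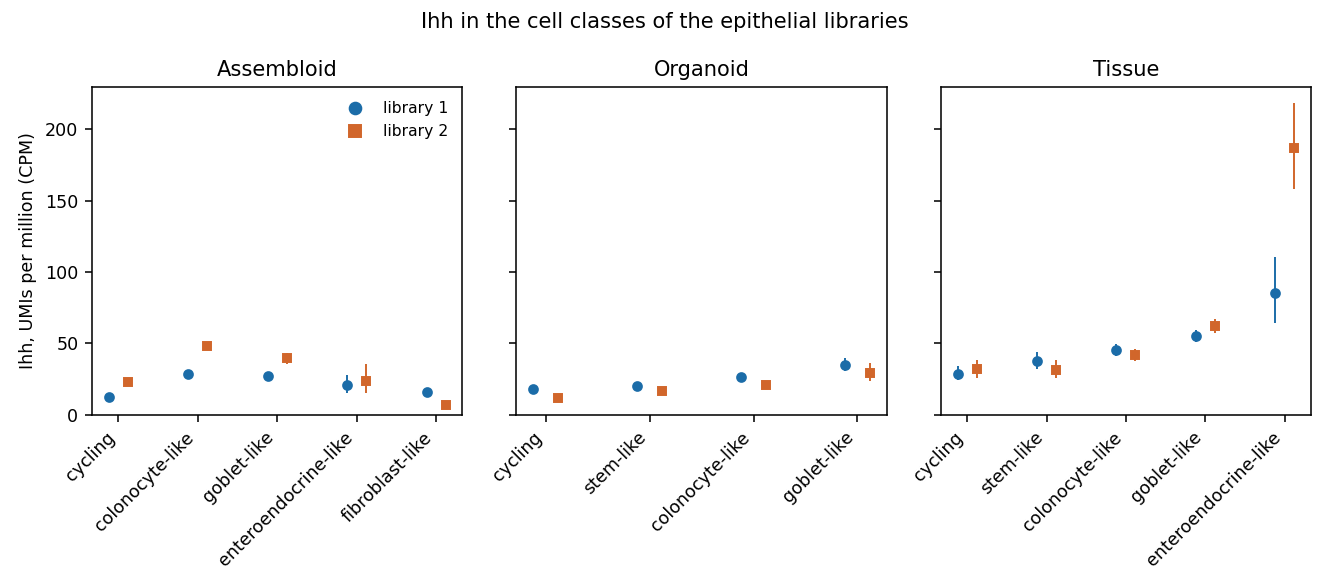
Ihh level (CPM, y axis) in the epithelial classes (x axis) of assembloids, organoids and tissue, with a point per library and bars for the exact 95% Poisson interval of its count. Cycling cells lie below colonocyte-like cells in each library (12.5 and 22.6, 17.8 and 11.8, and 28.7 and 31.8 CPM), and enteroendocrine-like cells of tissue are highest (85.2 and 187 CPM).

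Smo followed another pattern in tissue. It was at 40.4 and 34.7 CPM in stem-like, 31.3 and 38.9 in cycling, 25.3 and 21.1 in goblet-like and 22.8 and 19.4 in enteroendocrine-like cells, but at 1.73 and 2.27 CPM in colonocyte-like cells. The colonocyte-like cells stood far below all the others, 11.9-fold under cycling cells (log2 −3.57, SE 0.25, adjusted p = 2.46e-09, edgeR). Assembloid epithelium was low in every class. Its cycling cells held 1.62 and 4.88 CPM, its goblet-like cells 2.37 and 3.21 and its colonocyte-like cells 1.22 and 2.75, and the difference between colonocyte-like and cycling cells was −0.23 (SE 0.21, 95% interval from −0.64 to 0.18, adjusted p = 0.396).

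Organoids held Smo at 7.45 and 11.2 CPM in cycling, 9.44 and 15.7 in colonocyte-like, 13.6 and 24.4 in stem-like and 19.4 and 26.5 in goblet-like cells. Colonocyte-like and cycling cells of organoids overlapped (log2 0.21, SE 0.17, adjusted p = 0.69), while goblet-like cells were higher than cycling cells by 0.83 (SE 0.19, adjusted p = 0.00289, edgeR), a call lost without organoid library 1 (0.71) or 2 (1.10) and without the library as a block (0.81, adjusted p = 0.156). The colonocyte-like minus cycling difference of Smo was larger in tissue than in both cultures, by 3.34 on the log2 scale against assembloids (SE 0.33, adjusted p = 1.08e-06) and 3.78 against organoids (SE 0.31, adjusted p = 5.69e-08), in tests of the difference that called 29.3% and 36.9% of genes. These values depended on the clustering. At a resolution of 0.4, which redraws the classes, the colonocyte-like minus cycling difference of Smo was −2.34 in tissue, −2.29 in assembloids (adjusted p = 0.000229) and −1.16 in organoids (adjusted p = 0.008). The difference between assembloids and tissue was then 0.05 (adjusted p = 1) and that between organoids and tissue 1.18 (adjusted p = 0.0457).

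Ptch1 in tissue was highest in enteroendocrine-like cells (54.7 and 57.0 CPM), followed by cycling (31.5 and 25.0), stem-like (28.4 and 27.2), goblet-like (18.7 and 16.2) and colonocyte-like cells (10.4 and 10.9). Cycling and stem-like cells overlapped and the other neighbours did not. Colonocyte-like cells were below cycling cells (log2 −0.84, SE 0.20, adjusted p = 0.00195) and enteroendocrine-like cells above them (0.82, SE 0.23, adjusted p = 0.0105). The first call was lost without tissue library 1 (−0.54, adjusted p = 0.3), and the second without tissue library 1 (0.89) or 2 (0.46). In assembloids Ptch1 was at 11.7 and 12.6 CPM in colonocyte-like, 12.9 and 12.1 in goblet-like, 15.3 and 22.9 in cycling and 16.9 and 27.9 in enteroendocrine-like cells, and colonocyte-like and cycling cells differed by −0.22 (SE 0.17, adjusted p = 0.295, edgeR). This value was −0.66 at a resolution of 0.4 (adjusted p = 0.0104) and −0.63 with library totals (adjusted p = 0.015), and passed in both. In organoids it ran from 13.2 and 18.8 CPM in cycling to 20.1 and 51.2 in stem-like cells, with library 2 above library 1 in each named class.

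**Figure D3:**
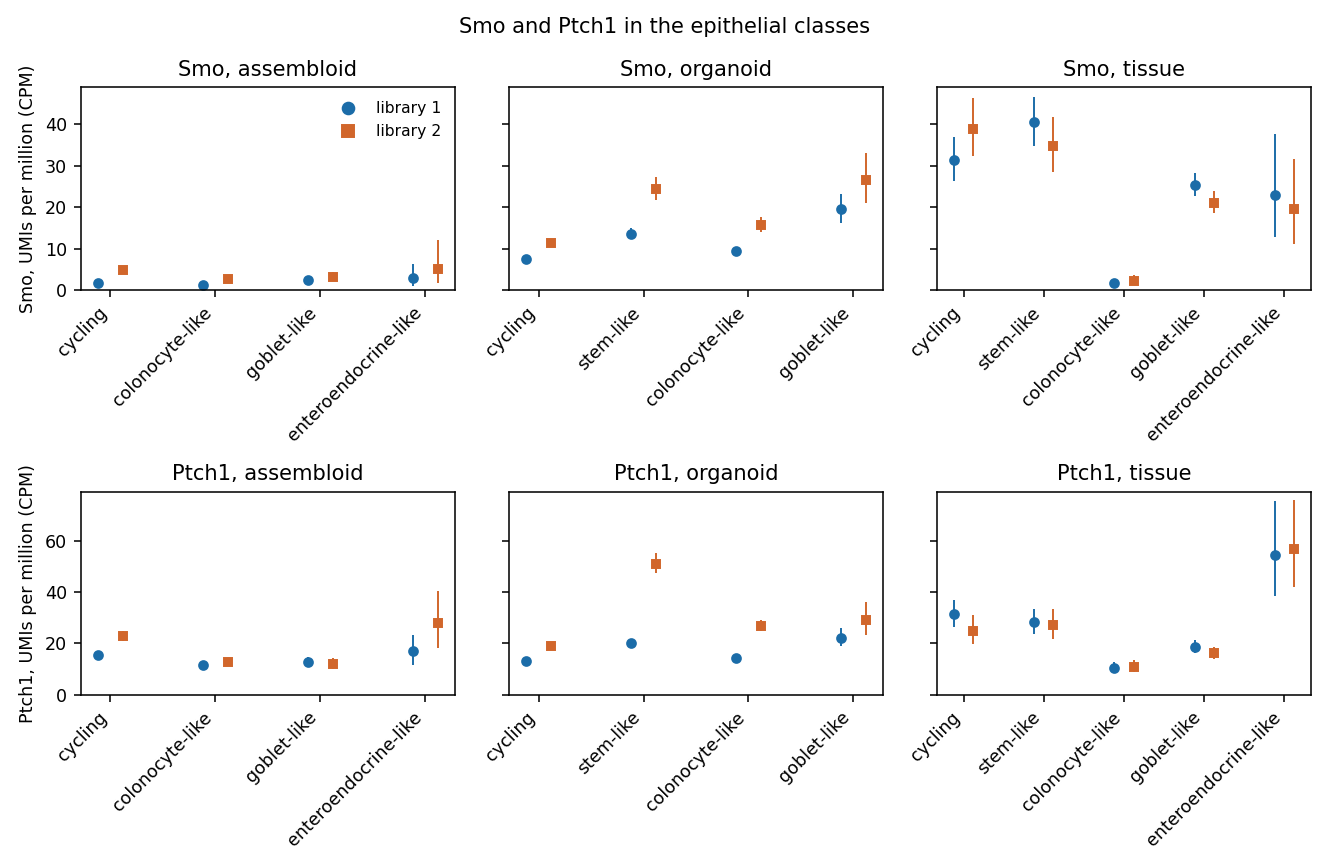
Smo and Ptch1 levels (CPM, y axes) by epithelial class (x axes) in assembloids, organoids and tissue, with a point per library and bars for exact 95% Poisson intervals. Smo of tissue drops from 31.3 and 38.9 CPM in cycling to 1.73 and 2.27 CPM in colonocyte-like cells, while all assembloid classes stay near the bottom of the axis.

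Among the genes that process and release Hedgehog ligands, 2 of 6 were higher and 3 lower in assembloid than in tissue epithelium, with a median log2 fold change of 0.31 beside 0.03 for all genes, of which 26.5% were higher and 23.3% lower. The lower ones were Hhat, which attaches palmitate to the ligand (−1.26, SE 0.32, adjusted p = 0.0123), and Disp1 (−1.52, SE 0.24, adjusted p = 0.00119) and Disp2 (−2.06, SE 0.35, adjusted p = 0.00189), which belong to the Dispatched family of ligand release. Disp1 was at 11.6 and 10.8 CPM in tissue, 2.64 and 3.35 CPM in assembloids and 9.08 and 16.1 CPM in organoids. The 2 higher ones, the secreted carriers Scube1 and Scube2, moved together with the fibroblast marker sum given above, whose part was not tested. Scube1 was at 11.8 and 21.6 CPM in stroma against 4.86 and 1.61 CPM in assembloid epithelium.

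Of 4 tested co-receptors and other ligand-binding membrane proteins, Cdon and Boc were lower in assembloids than in tissue (log2 −2.12, SE 0.32, adjusted p = 0.00101, and −2.90, SE 0.32, adjusted p = 0.000239) and Gpc3 was higher, where 49.7% of all genes were called. The fibroblast marker sum moved in the same direction as Gpc3, and its part was not tested. Cdon and Boc are co-receptors that promote ligand reception. Boc stood at 23.8 and 21 CPM in tissue, 9.28 and 16.5 in organoids and 1.53 and 3.17 in assembloids, the same order of groups as for Smo. Organoids were higher than tissue in Gpc3 (0.92, SE 0.31, adjusted p = 0.0357), lower in Cdon (−1.69, SE 0.31, adjusted p = 0.00257) and did not pass in Boc (−0.61, SE 0.30, adjusted p = 0.122, edgeR). The median of the 4 genes was −0.03 between assembloids and tissue and −0.08 between organoids and tissue. In the list for signal transduction and cilium, 4 of 11 tested genes were higher and 1 lower in assembloids, and 2 and 0 in organoids, against tissue (medians 0.55 and 0.19), where 49.7% and 47.1% of all genes were called. All 3 tested mesenchymal target genes were higher in assembloid than in tissue epithelium, together with the fibroblast marker sum (136 and 22.7 CPM against at most 0.0542), whose part was not tested. Between organoids and tissue 0 of the 3 were called by edgeR, and 0 had an unadjusted p under 0.05, where 10435 of all 19118 genes tested did.

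In the stroma, Ptch1 was highest in telocyte-like fibroblasts, while Smo, Hhip and the 3 Gli genes did not pass the test between telocyte-like and trophocyte-like cells. Telocytes are fibroblasts that lie along the crypt and trophocytes fibroblasts beneath it. Ptch1 was at 119 and 120 CPM in telocyte-like cells, 106 and 108 in their cycling counterparts, and 47.8 and 48.3 CPM in trophocyte-like cells. The libraries were close to each other and the classes far apart, and telocyte-like cells exceeded trophocyte-like cells 2.41-fold (log2 1.27, SE 0.23, adjusted p = 0.00079, edgeR). Ptch1 was 1 of 6 Hedgehog genes with enough UMIs for a fold that was called in this comparison, which called 12.2% of 15542 genes. At 2000 UMIs per cell, Ptch1 was detected in 21.5% and 20.2% of telocyte-like and 8.13% and 9.65% of trophocyte-like cells (70.6% and 69.6%, and 40.2% and 37.2%, before thinning). In the stromal libraries these classes were 892 and 1352, and 2657 and 3168, cells.

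Gli1 stood at 5.83 and 3.88 CPM in telocyte-like, 6.60 and 3.86 in trophocyte-like and 8.03 and 4.48 in cycling fibroblasts. Library 1 was above library 2 in each of these classes, and the classes overlapped. Between telocyte-like and trophocyte-like cells the log2 fold changes were −0.13 for Gli1 (SE 0.23, 95% interval from −0.58 to 0.32, adjusted p = 0.826), 0.00 for Gli2 (SE 0.15, interval from −0.30 to 0.30, adjusted p = 1), −0.15 for Gli3 (SE 0.20, interval from −0.55 to 0.25, adjusted p = 0.759) and −0.32 for Smo (SE 0.15, interval from −0.62 to −0.03, adjusted p = 0.209, edgeR). Of the genes induced by the pathway, Ptch1 passed the test between these classes and Gli1 and Hhip did not, and whether their changes differ was not tested. For Hhip, the log2 ratios of CPM + 1 with 1 library kept ran from −0.25 to −0.05.

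Gli2 was at 23.8 and 26.7 CPM in telocyte-like and 23.4 and 25.5 in trophocyte-like cells, and Gli3 at 19.3 and 18.8 against 18.8 and 22.1. Smo ranged from 32.3 and 33.5 CPM in cycling telocyte-like cells to 49.7 and 49.6 in interferon-responding fibroblasts. Across fibroblasts, the called member of the other classes was Ptch1 in cycling fibroblasts, which lay below the mean of telocyte-like and trophocyte-like cells (44.7 and 40.1 CPM, log2 −0.88, SE 0.20, adjusted p = 0.00352, edgeR), where 24.4% of genes were called. That mean is raised by the high Ptch1 level of telocyte-like cells. Cycling fibroblasts lay close to the trophocyte-like cells, somewhat below them in both libraries, and were not tested against them alone. Cycling telocyte-like cells and interferon-responding fibroblasts had 0 of 6 members called by edgeR, where 26.4% and 12.1% of genes were called. At an unadjusted p under 0.05 they had 4 and 1 members, where 5757 and 4019 of all 15542 genes tested were under it. DESeq2 called 2 and 0 members.

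**Figure D4:**
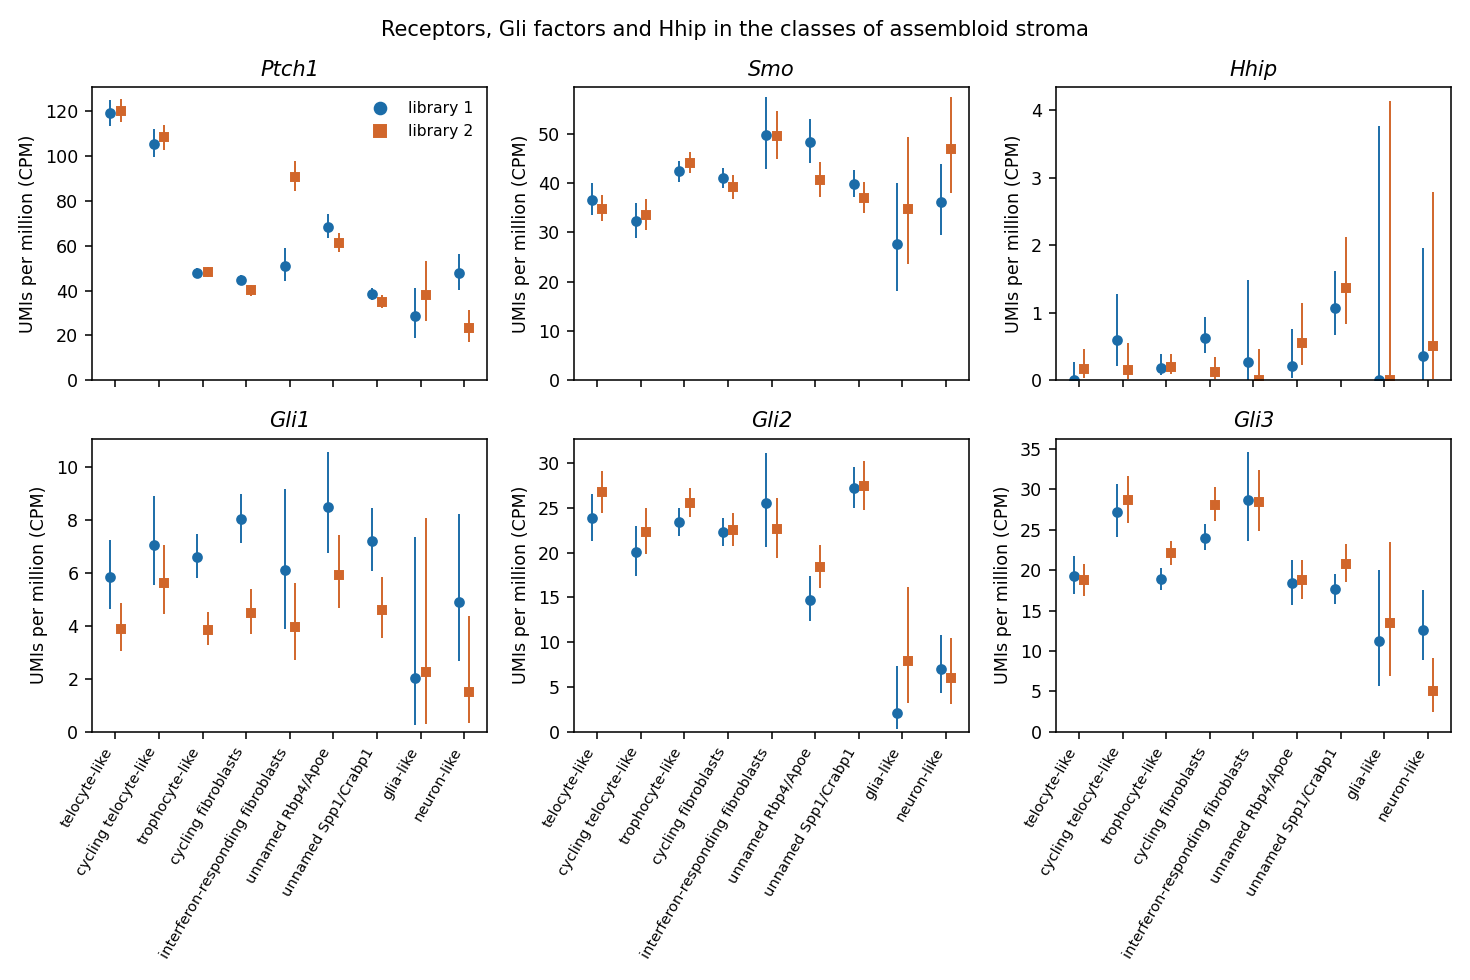
Ptch1, Smo, Hhip, Gli1, Gli2 and Gli3 levels (CPM, y axes) by stromal class (x axes), with a point per library and bars for exact 95% Poisson intervals. Ptch1 stands out in telocyte-like cells (119 and 120 CPM) and their cycling counterparts (106 and 108 CPM), whereas Gli2 differs little between telocyte-like (23.8 and 26.7) and trophocyte-like cells (23.4 and 25.5).

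Genes known as Hedgehog targets in gut mesenchyme were higher in telocyte-like cells in 3 of 5 tested cases and lower in 0, with a median log2 fold change of 1.35 beside −0.02 for all genes, of which 6.47% were higher and 5.70% lower. Foxl1, a transcription factor that marks telocytes in the gut, was at 5.03 and 7.12 CPM against 0.239 and 0.249 in trophocyte-like cells (log2 4.53, SE 0.33, adjusted p = 7.46e-08). Bmp4, a BMP ligand, was at 417 and 516 against 143 and 158 CPM (1.58, SE 0.27, adjusted p = 0.000457) and Foxf2, a forkhead factor of the gut mesenchyme, at 22.7 and 23.1 against 9.30 and 8.08 CPM (1.35, SE 0.16, adjusted p = 1.02e-05, edgeR). Foxf1 did not pass (184 and 161 against 115 and 103 CPM, log2 0.62, SE 0.21, adjusted p = 0.0592), nor did Osr1 (−0.39, SE 0.33, adjusted p = 0.557). Foxl1 was not among the markers that named the classes.

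Of 5 tested co-receptors, 3 were lower and 0 higher in telocyte-like cells, with a median of −1.25, where 5.70% of all genes were lower. Gas1, a membrane-anchored co-receptor, was lower (log2 −1.59, SE 0.35, adjusted p = 0.00417), as were Cdon (−1.53, SE 0.45, adjusted p = 0.0321) and Boc (−1.25, SE 0.35, adjusted p = 0.0257). Over the stroma, Gas1 was at 212 and 204 CPM. Scube1 was the 1 called gene of 6 for ligand processing and release (1.85, SE 0.16, adjusted p = 4.19e-07, edgeR). For signal transduction and cilium, edgeR called 0 of 15 genes, 0 had an unadjusted p under 0.05, and their median was −0.10. Over all genes, 3501 of 15542 had an unadjusted p under 0.05.

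Against epithelium, several genes of signal reception were higher in stroma. Evc and Evc2, ciliary proteins that bind Smo, were higher in stroma by 8.37 (SE 0.53, adjusted p = 0.000373) and 7.52 (SE 0.61, adjusted p = 0.000653), Kif7, a ciliary regulator of Gli proteins, by 6.05 (SE 0.56, adjusted p = 0.000895) and Gas1 by 9.19 (SE 0.98, adjusted p = 0.00129, edgeR). In all, 8 of 15 genes for signal transduction and cilium were higher and 2 lower, 2 of 5 co-receptors were higher and 0 lower, 3 of 6 processing genes were higher and 0 lower, and 5 of 6 targets were higher and 1 lower. Over all genes, this comparison called 72.0%, 33.8% as higher and 38.2% as lower. Within the assembloid epithelial libraries, 3 of 14 genes for signal transduction and cilium and 2 of 5 targets were higher in the fibroblast-like cells. Evc (6.39, SE 0.97, adjusted p = 0.0453, edgeR) and Evc2 (6.34, SE 1.03, adjusted p = 0.0493) were among them. Of the co-receptors, Gas1 included, 0 of 5 passed, and of the processing genes 0 of 6. At an unadjusted p under 0.05 these were 3 and 2, where 6644 of all 17948 genes tested were under it. Over all genes, 9.19% were called as higher.

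Glia-like cells were the stromal class with Shh and Dhh. Of the Shh UMIs in the stroma, all 39 of library 1 and all 6 of library 2 lay in glia-like cells (39.8 and 6.72 CPM, in 16 of 119 and 5 of 105 cells). No other named stromal class held a Shh UMI. Telocyte-like and trophocyte-like cells together had 0. Against a floor of 3 counts over these fibroblasts of the library, Shh was 682-fold higher in library 1 and 132-fold higher in library 2. The counting error of the glia-like UMIs, only 6 in library 2, is not part of these values. The edgeR test passed (adjusted p = 7.83e-05), but library 1 stood well above library 2, and the DESeq2 test did not (adjusted p = 0.165). Only the glia-like cells reached the 5 UMIs per library required for a fold, so that the edgeR test is no separate support.

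Dhh was likewise highest in glia-like cells, with 35 and 47 UMIs (35.7 and 52.6 CPM, in 27 and 39 cells), while telocyte-like cells had 0 and 2 and trophocyte-like cells 3 and 0 UMIs. The ratio of the CPM of the summed libraries was 967, with a counting interval from 398 to 3056. The fold fitted by edgeR was 695 (log2 9.44, SE 0.59, adjusted p = 1.31e-09). Only the glia-like cells reached the 5 UMIs per library required for a fold, so that the Dhh test is no separate support. Dhh is known from Schwann cells of peripheral nerve. Neuron-like cells held 8 and 2 Dhh UMIs, too few for a fold. In the same glia-like cells Ptch1 was lower than in the mean of these fibroblasts, at 28.5 and 38.1 CPM (log2 −1.34, SE 0.30, adjusted p = 0.00196, edgeR), and Gli2 had 2 and 7 UMIs (−2.52, SE 0.35, adjusted p = 2.09e-05). Ptch1 also lay below the level of trophocyte-like cells alone, which was not tested. The fibroblast marker sum was also lower, at 3259 and 2620 CPM against 5274 and 6917 in telocyte-like and 8249 and 12875 in trophocyte-like cells. Its part in these values was not tested. Altogether 4 of 8 members with enough UMIs were called in glia-like cells, where 26.6% of genes were and the median over all genes was −0.16. Smo (−0.49, adjusted p = 0.0904), Gli1 (−1.39, adjusted p = 0.104) and Gli3 (−0.83, adjusted p = 0.108, edgeR) did not pass, nor did Hhip. In the glia-like cells 1 of 6 processing genes, 1 of 5 co-receptors, 2 of 15 transduction and cilium genes and 3 of 5 targets were lower, and 1 transduction and cilium gene was higher.

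Neuron-like cells were lower than the fibroblasts in Ptch1 (−1.29, SE 0.24, adjusted p = 0.000299), Gli2 (−2.14, SE 0.23, adjusted p = 6.78e-07) and Gli3 (−1.30, SE 0.28, adjusted p = 0.00111, edgeR), where 40.3% of genes were called. Their fibroblast marker sum, 2796 and 2016 CPM, was also below that of telocyte-like (5274 and 6917) and trophocyte-like cells (8249 and 12875). Its part in these values was not tested. The call on Gli3 was lost with at most 5% mitochondrial UMIs per cell (−0.77, adjusted p = 0.171). Smo (−0.17, adjusted p = 0.428) and Gli1 (−0.82, adjusted p = 0.0768, edgeR) did not pass. All 6 processing genes were called in neuron-like cells, 2 as higher and 4 as lower, and 4 of 5 targets were lower. Of 5 co-receptors 1 was higher and 2 were lower, and of 15 transduction and cilium genes 2 were higher and 1 was lower. The stroma libraries also contained 55 and 33 epithelial-like cells with Ihh at 17.8 and 21.3 CPM, and 882 and 50 squamous epithelial-like cells with 8 and 7 Ihh UMIs. Fibroblasts of these libraries were near 0 for Ihh, with 3 UMIs over all telocyte-like and trophocyte-like cells. The squamous epithelial-like cells were low in Ptch1 (13.6 and 10.3 CPM, log2 −2.42 against the fibroblasts, SE 0.26, adjusted p = 3.46e-07, edgeR), and 5 of 7 members were called in them, where 57.8% of genes were. There, 5 of 6 processing genes, 8 of 15 transduction and cilium genes and 5 of 5 targets were lower. In the epithelial-like cells 6 of 7 members were called, where 53.3% of genes were.

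**Figure D5:**
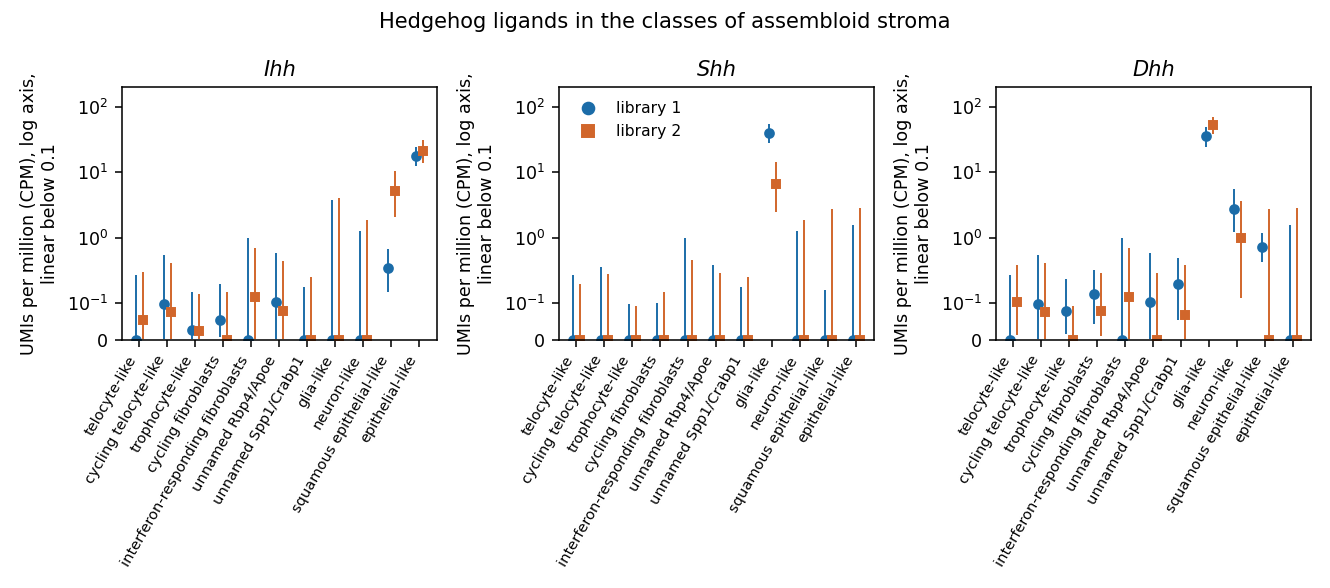
Ihh, Shh and Dhh levels (CPM, y axes) by cell class of the assembloid stroma libraries (x axes), with a point per library and bars for exact 95% Poisson intervals. Shh (39.8 and 6.72 CPM) and Dhh (35.7 and 52.6 CPM) are concentrated in glia-like cells and Ihh in epithelial-like cells (17.8 and 21.3 CPM).

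The genes whose levels were most like those of Ihh over 39 sums of epithelial cells by class and library were H2-Q2, Napg, Tmem230, Mfhas1 and Prnp, with Pearson correlations of log2(CPM + 1) between 0.741 and 0.777. Over 20 stromal sums, those most like Gli1 were Nab2, Hsd11b1, Cacna1c, Psrc1 and Lix1l, with correlations from 0.879 to 0.947. Among the members in the stroma, Gli1 and Gli3 correlated at 0.847, Gli2 and Gli3 at 0.755, Ptch1 and Gli1 at 0.506 and Ptch1 and Smo at 0.102. These sums share libraries and depth and are not independent, so the correlations are descriptions.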

How the data were processed

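The authors deposited raw UMI counts per gene and cell for 8 libraries, made per the labels with Cell Ranger 6 on mm10. The matrix headers name 6.0.1 for stroma and 7.1.0 for epithelium, and whether intron reads were counted is not given in the sources used here. A cell was kept if it had 500 genes or more and no more than 10% of its UMIs from mitochondrial genes, and 0 columns of per-sample values were left unused. Cells of each group were clustered with Seurat 5.3.0 and sctransform 0.4.2 at a resolution of 0.2, without the Hedgehog genes and the pathway lists, and doublets were not removed. Clusters were named from marker lists, with limits set after the clusters had been seen, and unnamed clusters kept the names of their leading genes. Unnamed clusters stayed among the epithelial or stromal cells of their libraries.

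Counts were summed per library, or per library and class of at least 20 cells, and tested with edgeR 4.0.16 (quasi-likelihood, filterByExpr, TMM, R 4.3.3) over all genes. The 6 epithelial libraries shared 1 fit for the group comparisons. Comparisons of classes had the library as a block. Other stromal classes were set against the equally weighted log2 mean of telocyte-like and trophocyte-like cells, which differ in Ptch1. SEs were derived from the log2 fold change and the F statistic, and 95% intervals of fold changes are normal approximations. A fold is given where at least 1 arm held 5 UMIs or more in every library. Where only the higher arm did, the test is no separate support for the difference. A call is an adjusted p under 0.05. Poisson and binomial intervals are exact, and like the floor of 3 counts they cover counting error only.

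All 9 members were followed in each comparison and 4 pathway lists by counts and genes that passed, described for the comparisons the text turns on, with the 5 genes most correlated with Ihh and with Gli1 (mean of at least 10 CPM). The members and lists were chosen with earlier results of these data known. Alternatives were DESeq2 1.42.0, no count filter, at most 5% mitochondrial UMIs, at least 1000 genes per cell, library totals in place of TMM (added after seeing the data), a resolution of 0.4, the replicate block and leaving out each library. The goblet-like and enteroendocrine-like comparisons were also added after seeing the data. In simulated counts, 200 genes were changed 4-fold. For assembloids against tissue (19118 genes), edgeR recovered 87% and made 11 false calls. For stroma against epithelium (19660 genes) it was 85.5% and 20, and for telocyte-like against trophocyte-like cells (15542 genes) 98% and 7. For colonocyte-like against cycling cells of tissue (17400 genes) it was 87% and 9, and within the assembloid epithelial libraries (17948 genes) 59% and 3. These comparisons called many more genes in the data than were changed here, a setting that the simulation does not cover.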

Additional observations from a re-analysis of the deposited data

Results flagged for a closer look

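The 4 values given here are differences between groups in the colonocyte-like minus cycling contrast that passed a test of the difference itself, an interaction in the edgeR fit. For Smo the contrast differed by 3.34 between assembloids and tissue (SE 0.33, adjusted p = 1.08e-06) and by 3.78 between organoids and tissue (SE 0.31, adjusted p = 5.69e-08). It was −3.57 in tissue, −0.23 in assembloids and 0.21 in organoids. For Ptch1 it differed by 0.95 between organoids and tissue (SE 0.26, adjusted p = 0.00752), from −0.84 in tissue to 0.10 in organoids. For Ihh it differed by −1.06 between organoids and assembloids (SE 0.28, adjusted p = 0.00891), from 1.54 in assembloids to 0.49 in organoids. The organoid colonocyte-like cells behind these values had 2484 and 2230 CPM of the 9 cycling markers against 168 and 161 in tissue, and at a clustering resolution of 0.4 92.4% and 96.6% of them fell into an unnamed cluster led by Dtl and S100g, whose part was not tested. The interaction tests called 29.3% (assembloids and tissue), 36.9% (organoids and tissue) and 28.0% (organoids and assembloids) of all genes tested. At a clustering resolution of 0.4 the Smo difference between assembloids and tissue was 0.05 and the Ptch1 difference 0.17, and neither passed, while the Ihh difference between assembloids and tissue, 0.45 and not called at first, became 1.17 and passed (adjusted p = 0.0267, edgeR). The Ptch1 value was also lost without organoid library 2 (0.78) or tissue library 1 (0.70), and the Ihh value without organoid library 1 (−0.99) or 2 (−1.05), with library totals (−0.45) and with at most 5% mitochondrial UMIs (−0.98).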

How the results depend on the processing

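Of 1269 values of single members under alternatives, 1098 kept their direction and side of the threshold or moved by less than the spread between libraries, 42 lost and 29 gained a call, 74 moved by more than that spread and 26 changed sign. None of these 26 had been called at first, and 1 was called under the alternative. The numbers of called members that moved by more than 1.5 times are given next. The share of all genes called under each alternative is not set beside them. They therefore describe the calls and show nothing particular to the Hedgehog genes. With a resolution of 0.4 they became 1 (from 2) for the colonocyte-like minus cycling difference between organoids and tissue, 3 (from 1) for that contrast in assembloids and 1 (from 0) in organoids. With library totals they became 2 (from 1) for the difference between organoids and assembloids, 3 (from 1) for the contrast in assembloids and 1 (from 0) for cycling telocyte-like cells. With at most 5% mitochondrial UMIs they became 0 (from 1) for the difference between organoids and assembloids, 2 (from 1) for cycling fibroblasts and 1 (from 0) for cycling telocyte-like cells. DESeq2 called 3 (from 4) in glia-like cells, a smaller move, 2 (from 0) in cycling telocyte-like cells and 6 (from 3) between fibroblast-like and epithelial cells of the assembloid epithelial libraries, where at least 1000 genes per cell gave 5. With each library left out, the counts ran from 3 to 5 between organoids and tissue, 3 to 4 between organoids and assembloids, 6 to 8 between stroma and epithelium, and 2 to 2 between assembloids and tissue. For the colonocyte-like contrast they ran from 1 to 1 in assembloids, 0 to 1 in organoids and 2 to 3 in tissue, and for its differences from 1 to 2 (assembloids and tissue), 1 to 3 (organoids and tissue) and 0 to 1 (organoids and assembloids). Leaving out a library left no residual degrees of freedom in the stromal classes and within the assembloid epithelial libraries, which gave log2 ratios of CPM + 1 with no test. All 74 values that moved are of this kind, and since that scale differs from the edgeR fold and understates low genes, they do not separate the library from the scale. Dhh in glia-like cells, for example, was at 5.14 and 5.67 there.

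Over the 4 pairs of groups, the deviations of libraries with the same replicate number had correlations of −0.03 to 0.06. Such values cannot show whether libraries of different groups shared an animal or a run, and the labels do not say so. The replicate block left 7, 2, 5 and 4 called members for stroma against epithelium, assembloids against tissue, organoids against tissue and organoids against assembloids, the same counts as without it. Without the library as a block, the class comparisons changed to 0 (from 1) and 1 (from 2) for the differences of organoids from assembloids and from tissue and to 5 (from 3) within the assembloid epithelial libraries.

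Log2 values that changed sign under library totals were Gli1 in interferon-responding fibroblasts (0.012), Smo in cycling fibroblasts (0.026), neuron-like cells (0.066) and goblet-like cells of assembloids (−0.071), Gli3 (−0.25) and Ptch1 (−0.089) between assembloids and tissue, and the Ihh difference between organoids and tissue (0.16). This scaling moved the median of all genes from −0.04 to −0.59 for colonocyte-like against cycling cells of tissue and from 0.02 to 0.77 for the difference between organoids and tissue. At most 5% mitochondrial UMIs did so for Gli2 between assembloids and tissue (−0.10) and between telocyte-like and trophocyte-like cells (−0.12), and for Smo in cycling fibroblasts (0.0020) and in goblet-like cells of tissue (0.38). No count filter did so for Gli2 between telocyte-like and trophocyte-like cells (−0.010) and Smo in cycling fibroblasts (0.0016), at least 1000 genes for Gli3 between assembloids and tissue (−0.032), and DESeq2 for Hhip in glia-like (0.56) and Smo in squamous epithelial-like cells (0.014). A resolution of 0.4 did so for Smo in cycling fibroblasts (0.0043) and for Ptch1 (−0.50) and Smo (−1.16) in colonocyte-like cells of organoids, the last of which was called. With single libraries left out, values between assembloids and tissue ran from −0.11 to 1.41 (Gli2), −0.90 to 0.82 (Gli3) and −0.37 to 0.13 (Ihh), Ptch1 between organoids and assembloids from −0.10 to 0.30, and goblet-like cells of assembloids from −1.29 to 2.53 (Gli3) and −0.36 to 0.65 (Smo). The causes were not tested. Depth limits Shh, Dhh, Gli1 and Hhip in epithelium, which rest on few UMIs per library.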

Other observations

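Clusters that no marker list named also held Hedgehog transcripts. In the assembloid epithelium, Ihh was at 39.4 and 47.5 CPM in a cluster led by Malat1 and Nr3c2 and at 28.0 and 44.0 CPM in one led by Gm35239 and Gm42418. In tissue it was at 35.6 and 39.6 CPM in a cluster led by Sult1a1 and Gsdmc3, and at 31.7 and 46.3 CPM in one led by the haemoglobin genes Hbb-bs and Hbb-bt. In the stroma, Ptch1 was at 68.5 and 61.3 CPM in a cluster led by Rbp4 and Apoe, between the trophocyte-like and telocyte-like levels of both libraries. Hhip had 22 and 20 of the stromal UMIs in a cluster led by Spp1 and Crabp1. In organoids, 19 and 24 of the Dhh UMIs lay in cycling cells. No unnamed cluster was an arm of a comparison by itself, and these values are given without a test. The unnamed clusters did count among the epithelial or stromal cells wherever all of these were summed. The cluster led by Gm35239 and Gm42418 held 33.7% and 11.4% of the kept cells of the assembloid epithelial libraries. The cluster led by haemoglobin genes held 43.0% and 34.7% of those of tissue.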
